A study of Oncorhynchus mykiss with 69 samples.

Results

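This account describes the response of the rainbow trout liver line RTL-W1 (Oncorhynchus mykiss) to the second highest of 5 methylmercury concentrations, titled 0.5. The comparison rests on 4 of the 69 libraries of the series, taken by their titles: 2 from cultures given methylmercury at 0.5 for 24 h, against 2 from the control cultures of the same experiment. Both groups were cells at passages 78 to 84, grown in L-15 medium with serum and antibiotics, and the agent given to the controls is not stated in the labels. The titles carry no unit for 0.5, and the deposited tables give every dose as 250 times the titled value. The other liver groups, at 0.001, 0.01, 0.1 and 1, and the gill and gut lines at 0.5 had 2 libraries each. Their values are given only where they show how 0.5 differs. Each liver error and p-value, however, rests on 1 residual variance per gene, pooled over all 12 liver methylmercury libraries. Every culture of the line is a passage of 1 established line, and nothing in the labels says what separates the 2 libraries of a pair. The errors below thus measure only the spread between libraries of a pair, over all groups of the line.

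Methylmercury binds the thiol groups of cysteines, including those of glutathione and of the sensor protein Keap1. Keap1 normally marks the transcription factor Nrf2 for degradation. When its cysteines are modified, Nrf2 accumulates and switches on genes that make, recycle and export glutathione conjugates. Damaged proteins are handled by a separate programme, in which the factor Hsf1 raises heat shock chaperones, and shortage of amino acids or eIF2 kinase activity raises genes driven by Atf4, the integrated stress response.

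The liver table held 23203 genes, of which 5397 carried a gene symbol and 17806 only a locus number. Values are means of a pair of libraries; a level is given as the estimated count per library, recovered from the deposited mean expression and fold changes, at an estimated 9720000 reads per library in tabulated genes at 0.5 and 9330000 in control. Changes are log2 differences between 0.5 and control. Relative to the median gene means that the median change of all tabulated genes at 0.5, -0.43 as deposited, was subtracted. Changes of single genes are given on this scale unless marked as deposited. For 0.5 against control in liver, adding -0.43 to such a change gives the value as deposited, so small rises are smaller there. A call is an adjusted p under 0.05 from a two-sided moderated test over all tabulated genes.

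The tables do not hold a whole transcriptome, and this bears on the scale. Among the 7735 genes in the upper tercile of expression, 91.0% lay within 0.2 log2 units of no change as deposited at 0.001, 56.8% at 0.1, 4.16% at 0.5 and 2.06% at 1. At 0.5, 1658 of them lay above this window and 5755 below it. A further 9085 genes stood in the gill or gut table and not in the liver table; setting them to no change moved the median at 0.5 to -0.011. Well-expressed genes near no change at 0.5 were thus few in the liver table, and the rule by which genes entered it is not given in the sources used here. Counts of tabulated members are therefore not counts of all members. For lists and some genes the value as deposited is given beside the one relative to the median gene. Other single genes have the latter only. The results lead with genes called on both scales.

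**Figure D1:**
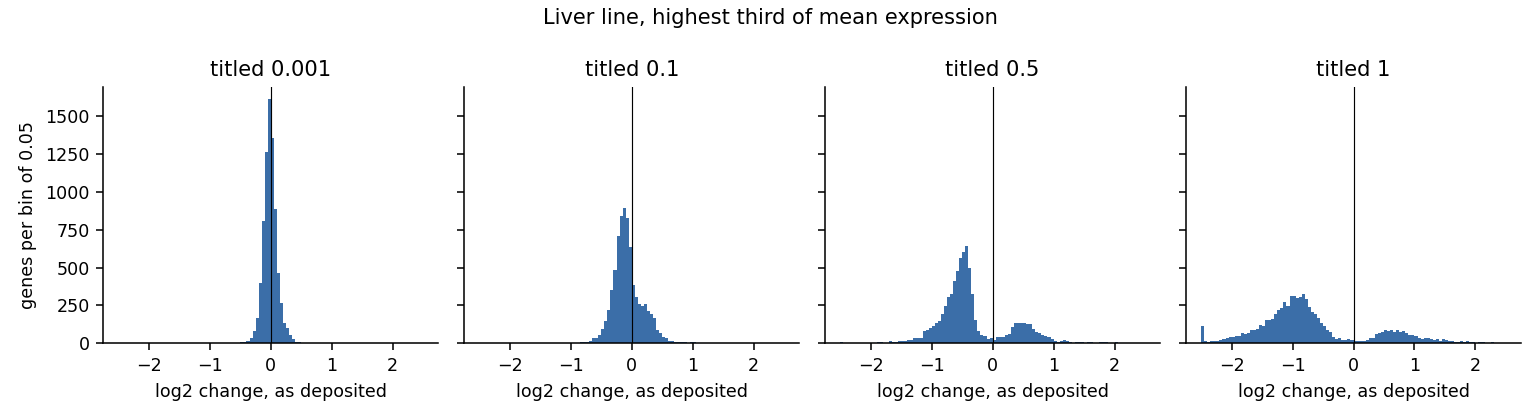
Histograms of the log2 change against control, as deposited, for the 7735 liver-line genes in the upper tercile of mean expression at the titled concentrations 0.001, 0.1, 0.5 and 1 (x axis, values beyond 2.5 in the end bins; y axis, genes per bin of 0.05 log2 units). At 0.001 the genes pile up at 0, while at 0.5 only 4.16% lie within 0.2 of it and the genes form one group above and a larger one below.

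At 0.5, relative to the median gene, 1954 genes (8.42%) were higher and 545 (2.35%) lower. As deposited the counts were 1168 higher (5.03%) and 5651 lower (24.4%), so the share of higher among called genes depends on the scale. Among genes with a symbol, 1669 (30.9%) were lower as deposited. On both scales 1147 genes (4.94%) were higher and 545 (2.35%) lower. Among genes with a symbol these were 290 (5.37%) and 157 (2.91%). The scales differ only by the fall of the median gene. Every gene called lower relative to it was therefore also lower as deposited, and the second scale narrows only the higher calls. The 3 lower concentrations gave 8 (0.0345%), 10 (0.0431%) and 16 calls (0.069%) relative to the median gene, and concentration 1 gave 6719 (29%). Calls depended on expression: 16.5% of genes in the upper tercile of mean expression were called higher, against 2.59% in the lower tercile, and the median standard error was 0.16 in the upper and 0.88 log2 units in the lower one. The authors' own F-test over all 5 concentrations, in the authors' deposited table, called 10616 genes (45.8%).

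Genes of glutathione metabolism and Nrf2 control were higher at 0.5 and included the smallest adjusted p-values of all the lists. Of 21 symbols of this list in the annotation, 15 were tabulated, and 11 of the 15 were called higher on both scales. None was lower relative to the median gene and 1, idh1, was lower as deposited, at -0.66. The background for genes with a symbol was 5.37% higher on both scales and 9.69% higher relative to the median gene. The median of the 15 tabulated members was 2.16 relative to the median gene and 1.73 as deposited, against 0 and -0.43 for all tabulated genes.

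The sensor keap1a stood at an estimated 1405 counts at 0.5, against 57.1 in control. Its change was 5.00 ± 0.20 (SE) relative to the median gene and 4.57 as deposited (adjusted p = 5.04e-05). The second copy, keap1b, had 5985 counts at 0.5 and 1761 in control, a change of 2.16 ± 0.11 (adjusted p = 0.000108). Both copies were thus higher, and their difference from each other was not tested.

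Genes of glutathione synthesis, recycling and export were higher too. Glutathione reductase, gsr, which regenerates reduced glutathione, had 35412 counts at 0.5 and 4378 in control, a change of 3.41 ± 0.10 (adjusted p = 2.06e-05). The catalytic subunit of the rate-limiting synthesis enzyme, gclc, had 6110 counts at 0.5 and 890 in control, a change of 3.17 ± 0.13. Glutathione synthetase, gss, the following step, changed by 1.53 ± 0.12. The canalicular pump abcc2, which exports glutathione conjugates, had 3635 counts at 0.5 and 368 in control, a change of 3.69 ± 0.13 (adjusted p = 3.52e-05).

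The enzyme pgd, which supplies NADPH to this cycle, was also higher, with a change of 2.38 ± 0.15. Peroxiredoxin prdx1, which reduces peroxides, changed by 1.88 ± 0.15, and the autophagy receptor sqstm1, itself a partner of Keap1, by 1.84 ± 0.21. Heme oxygenase hmox1a had 51.9 counts at 0.5 and 13.0 in control and passed narrowly, at 2.35 ± 0.58 (adjusted p = 0.0443). The other 4 tabulated symbols of the list, gpx1, fth1b, idh1 and nqo1, were not called relative to the median gene, at 0.58, 0.30, -0.23 and 0.09. Of these, nqo1 was at 30.9 counts at 0.5 and 38.2 in control. Trout have further copies of many genes, some known only by locus number. Reads of near-identical copies may be split between them, which was not tested for any gene here.

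Of the 15 members, 2 were called at 0.1, where 16 of all genes were. These were keap1a, 2.01 above the median gene (adjusted p = 0.0264), and gsr, 1.09 above it (adjusted p = 0.021); the list's median there was 0.59. At 1, keap1a reached 6.47 and abcc2 5.62. The step between 1 and 0.5 was called for 9 of the 15 members, against 3.56% of all genes with a symbol. In the authors' deposited benchmark table, 8 of the 15 had a fitted curve, with a median benchmark dose of 3.2 on the table's dose scale. For all 3482 fitted genes it was 28.2, and 677 of these had a rising curve.

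Heat shock genes formed the second group, a list of chaperones and their partners that also holds hsf1 and the ubiquitin gene ubb. Of 17 annotated symbols 13 were tabulated. Among these, 9 were higher than the median gene and 7 on both scales, where 9.69% and 5.37% of genes with a symbol were. None was lower relative to the median gene and 2 were lower as deposited. The inducible chaperone hspa1b had 162 counts at 0.5 and 13.5 in control, a change of 3.92 ± 0.35 (adjusted p = 0.00143). Its relative hsp70a had 6293 counts at 0.5 and 587 in control, a change of 3.81 ± 0.63 (adjusted p = 0.0124).

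The partners of Hsp70 were also higher. The J-domain protein dnajb1b changed by 2.98 ± 0.50 and the nucleotide exchange factor bag3 by 2.62 ± 0.47. Among the constitutive chaperones, hspa8 had 113139 counts at 0.5 and 83580 in control. Its change was 0.83 ± 0.10 relative to the median gene and 0.40 as deposited. For hsp90ab1 these were 0.96 ± 0.13 and 0.53. The factor Hsf1 itself was not called at the RNA level (hsf1, -0.02 ± 0.13), nor were the small heat shock protein hspb1 (-0.14 ± 0.26) and the collagen chaperone serpinh1a (-0.39 ± 0.17).

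No tabulated member of the heat shock list was called at 0.1, where the list's median was 0.33. In the step between 1 and 0.5 the change of hspa1b was a further 3.95 ± 0.35 (adjusted p = 0.0038), that of dnajb1b 3.13 ± 0.50 and that of hsp70a 3.09 ± 0.63. For keap1a this step was 1.46 ± 0.20 and for gsr 1.07 ± 0.10. Whether the 2 lists differ in the shape of their response was not tested.

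**Figure D2:**
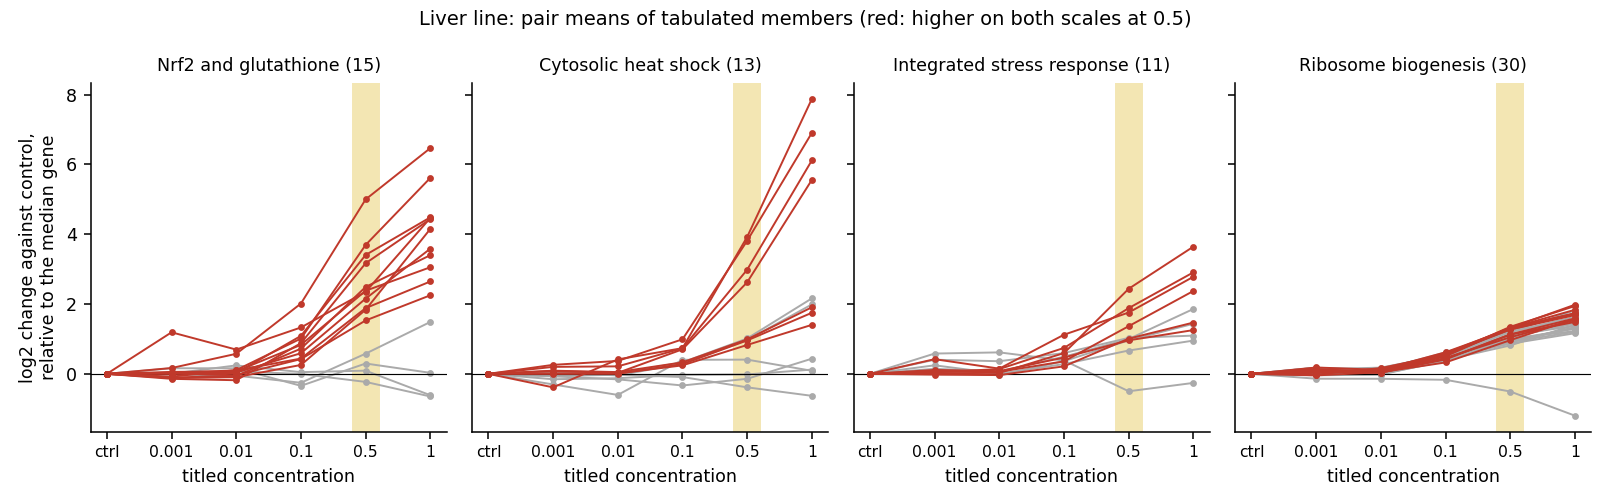
Log2 change against control, relative to the median gene (y axis), at each titled concentration (x axis, evenly spaced, control first) for tabulated members of 4 lists in the liver line; each line joins the pair means of 1 gene, red where the gene was higher on both scales at 0.5, and the shaded band marks 0.5. The line of keap1a is at 2.01 at 0.1, that of hspa1b, at 3.92 at 0.5, climbs to 7.88 at 1, and ribosome biogenesis genes run close together around 1.10 at 0.5.

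Genes of the integrated stress response were higher as well. Of 17 annotated symbols 11 were tabulated, with none lower on either scale. Relative to the median gene 8 were higher and 6 on both scales, where 9.69% and 5.37% of genes with a symbol were. The glutathione-degrading enzyme chac1, a target of Atf4 and Chop, had 9876 counts at 0.5 and 2389 in control, a change of 2.44 ± 0.23 (adjusted p = 0.00197). The transcription factors cebpb and atf3 changed by 1.37 ± 0.17 and 1.01 ± 0.14, the folate cycle enzyme mthfd2 by 1.88 ± 0.31, the serine synthesis enzyme psat1 by 0.96 ± 0.17 and the amino acid exchanger slc7a5 by 1.76 ± 0.41. Asparagine synthetase, asns, was at 0.96 ± 0.26 and not called (adjusted p = 0.057).

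Of 10 tabulated genes of the unfolded protein response of the endoplasmic reticulum, 1 was higher relative to the median gene, a share close to the 9.69% of all genes with a symbol. This was the chaperone hyou1 at 0.76 ± 0.15, and it was not called as deposited. The median was 0.02, and 6 members were lower as deposited, where 30.9% of all genes with a symbol were. Of 6 tabulated aminoacyl-tRNA synthetases, enzymes that charge tRNA and are Atf4 targets in mammals, all 6 were between 0.82 and 0.92 relative to the median gene and called there, and none was called as deposited, where their median was 0.46.

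Relative to the median gene, ribosome biogenesis was the list with the most tabulated members called. On both scales its 11 members equalled in number the 11 of 15 in the Nrf2 and glutathione list. Of 42 annotated symbols 30 were tabulated. Among these, 27 were higher than the median gene and 11 on both scales, where 9.69% and 5.37% of genes with a symbol were. None was lower relative to the median gene and 1 was lower as deposited. The members lay close together, with a median of 1.10, or 0.67 as deposited. The 3 with the smallest adjusted p were the small-subunit assembly factor pno1, at 0.96 ± 0.12 (adjusted p = 0.00534), the largest subunit of RNA polymerase I, polr1a, at 1.33 ± 0.18 (adjusted p = 0.00646), and the large-subunit factor wdr12, at 1.32 ± 0.19 (adjusted p = 0.00811). The gene polr1a had 4136 counts at 0.5 and 2163 in control. The nucleolar proteins ncl and nop56 were higher on both scales too, while fbl, the rRNA methyltransferase fibrillarin, at 1.08 ± 0.22, was called only relative to the median gene. A single member went the other way without a call, npm1b at -0.51 relative to the median gene and -0.94 as deposited.

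Ribosomal proteins themselves could not be followed, since 35 of their 37 annotated symbols stood in none of the 3 methylmercury tables. Only 2 of the 30 tabulated biogenesis genes also stood in the gill table and 2 in the gut table, so their change could not be compared between lines.

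**Figure D3:**
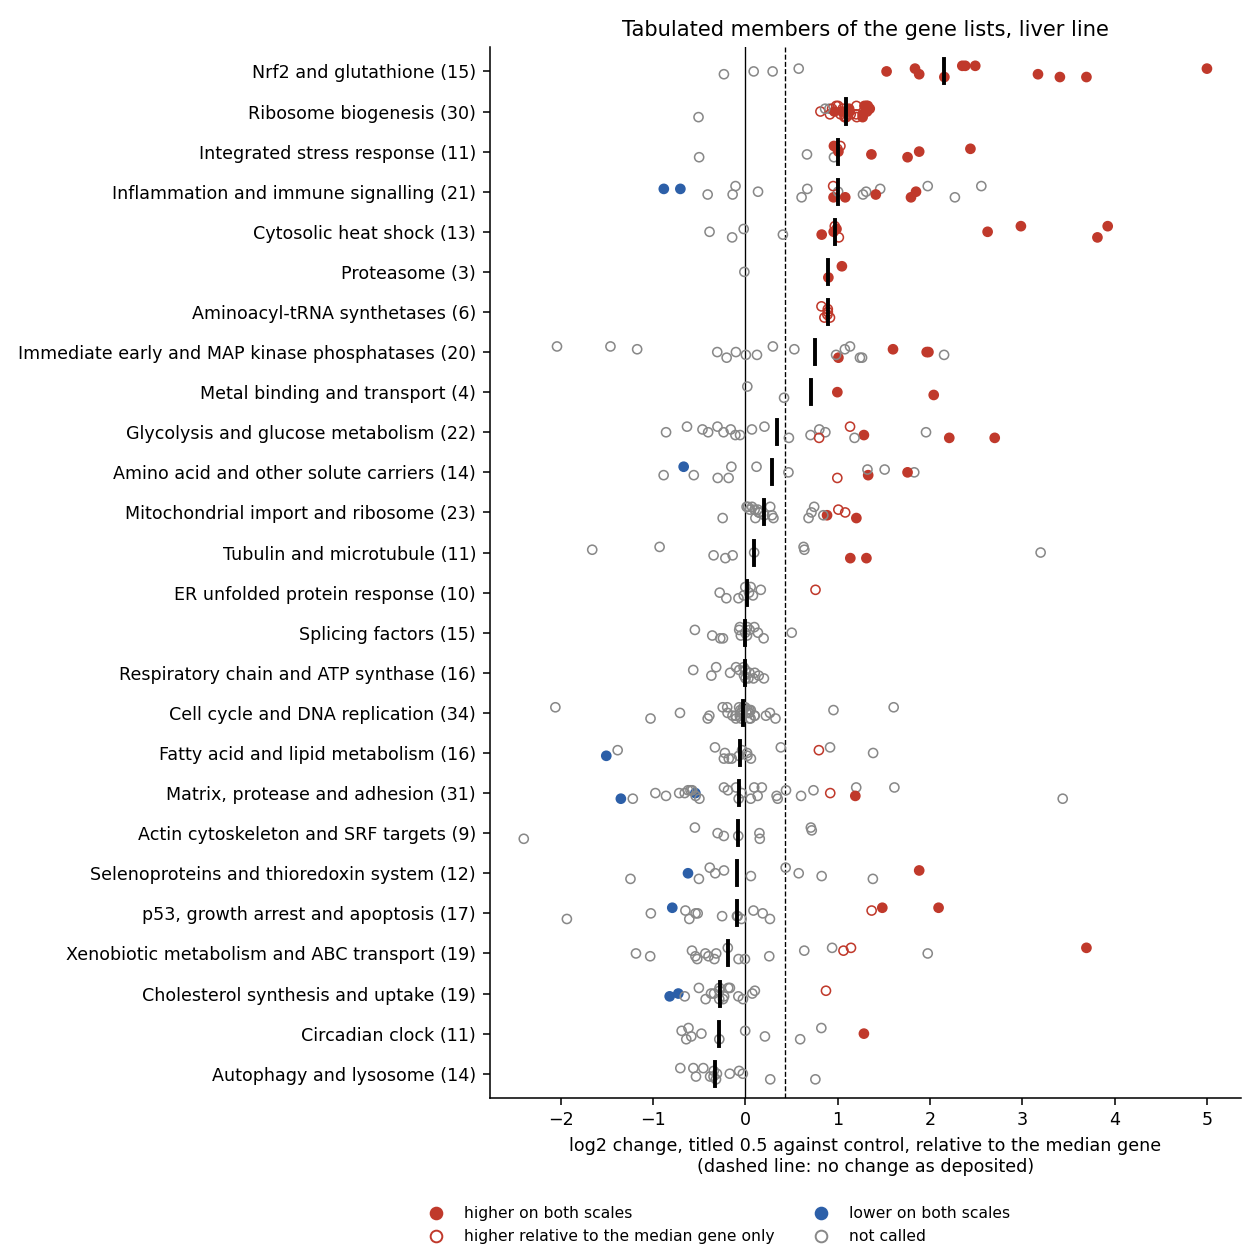
Log2 change at 0.5 against control in the liver line, relative to the median gene (x axis), for every tabulated member of 26 gene lists (rows, number of tabulated members in brackets, ordered by median); points are pair-mean differences, short black bars are list medians and the dashed line marks no change as deposited. The Nrf2 and glutathione list reaches 5.00 and has the highest median, 2.16, while the medians of the cell cycle, splicing and respiratory chain lists lie near 0 on this scale and below the dashed line.

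Among stress signalling genes, the list of immediate early genes had 4 of 20 tabulated members higher on both scales and none lower relative to the median gene. These were csrnp1b at 1.98 ± 0.20 (adjusted p = 0.0022), maff, a small Maf protein that partners Nrf2, at 1.96 ± 0.30, ier2b at 1.6 ± 0.27, and atf3. Of 21 tabulated inflammation genes, 5 were higher on both scales and 2 lower, where 5.37% and 2.91% of genes with a symbol were. The NF-kB subunit rel changed by 1.85 ± 0.16 (adjusted p = 0.0012), the cytokine signal inhibitor socs3 by 1.79 ± 0.24, the NF-kB inhibitor nfkbiab by 1.41 ± 0.21, il15 by 0.96 ± 0.13 and traf2b by 1.08 ± 0.17. Another NF-kB inhibitor gene, nfkbie, went the other way, with 83.6 counts at 0.5 and 179 in control, a change of -0.70 ± 0.17, as did traf2a at -0.88 ± 0.20.

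Growth arrest genes showed a narrow response. Of 17 tabulated p53 and apoptosis genes, gadd45ab at 2.09 ± 0.31 and the cell cycle inhibitor cdkn1a at 1.48 ± 0.22 were higher on both scales, plk3 relative to the median gene only, and bida, a death-promoting Bcl-2 family gene, was lower at -0.79 ± 0.20. The call of bida was lost with centring on genes of at least median mean expression. The inhibitor cdkn1a had 1358 counts at 0.5 and 636 in control. None of the 34 tabulated cell cycle and replication genes was called relative to the median gene, with a median of -0.03; 16 were lower as deposited, where the median was -0.46. The same held for the 15 tabulated splicing factors (0 called, 8 lower as deposited) and 16 respiratory chain genes (0 called, 9 lower as deposited). Of all genes with a symbol, 30.9% were lower as deposited, while on both scales 5.37% were higher and 2.91% lower. At an unadjusted p under 0.05, 5746 of all genes passed relative to the median gene.

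Energy and transport genes were mixed, and the counts below stand beside 5.37% of genes with a symbol higher on both scales. Of 22 tabulated glycolysis genes, 3 were higher on both scales: the aldolase aldocb at 2.21 ± 0.16 (adjusted p = 0.000619), the hexokinase hk2 at 1.28 ± 0.22 and the gluconeogenic gene pck1 at 2.70 ± 0.58, with 21.0 counts at 0.5 and 3.83 in control. Iron exporter slc40a1 had 6687 counts at 0.5 and 2131 in control, a change of 2.04 ± 0.19 (adjusted p = 0.00186). Zinc importer slc39a10 changed by 1.00 ± 0.16, and metallothionein mt2, which binds metals, was not called, with 190 counts at 0.5 and 186 in control, a change of 0.42 ± 0.25 relative to the median gene and -0.01 as deposited. The tubulin folding cofactor tbcb and the microtubule protein map1ab were the 2 of 11 tabulated tubulin genes that were higher, at 1.31 ± 0.19 and 1.14 ± 0.19. Of 3 tabulated proteasome genes, 2 were higher on both scales, psmd1 at 0.90 ± 0.11 and psme3 at 1.05 ± 0.17; 12 of the 16 annotated symbols stood in no methylmercury table.

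Of the cholesterol synthesis genes few were called relative to the median gene. Of 19 tabulated members, the rate-limiting reductase hmgcra, with 1621 counts at 0.5 and 3748 in control, changed by -0.82 ± 0.14 (adjusted p = 0.0123), and squalene synthase fdft1 by -0.73 ± 0.14 (adjusted p = 0.0182). As deposited 13 of the 19 were lower and none higher, where 30.9% of all genes with a symbol were lower. The nuclear receptor pparab, which drives fatty acid oxidation genes, fell to 21.6 counts at 0.5, against 81.7 in control, a change of -1.50 ± 0.33. While 2.91% of genes with a symbol were lower on both scales, pparab was the only such gene of the 16 tabulated fatty acid and lipid genes. Their median was -0.05, or -0.48 as deposited, where 7 were lower and none higher. Another receptor of these 16, pparg, had 61.0 counts at 0.5 and 45.9 in control. Its change of 0.80 ± 0.19 was called higher (adjusted p = 0.0375), but not as deposited. In the cholesterol list the phosphatase lpin1 was at 0.87 ± 0.17 relative to the median gene (adjusted p = 0.0202) and not called as deposited. No member of the 14 tabulated autophagy and lysosome genes or the 9 actin genes was called relative to the median gene; 6 and 2 were lower as deposited.

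In the remaining lists few members passed. The solute carriers gave slc1a4 at 1.33 ± 0.27 and slc7a6 at -0.67 ± 0.14 beside slc7a5, and the selenoprotein and thioredoxin list gave prdx1 and selenoh, which was at -0.62 ± 0.14. The matrix list gave the protease plaub at 1.19 ± 0.11, the integrin subunit itgb5 at -1.35 ± 0.14, lama4 at -0.54 ± 0.12 and, relative to the median gene only, cdh2. The clock repressor bhlhe41 changed by 1.28 ± 0.13. Mitochondrial import and ribosome genes gave mrpl55 and mrpl12, at 0.89 ± 0.13 and 1.20 ± 0.22, of 23 tabulated. In the xenobiotic list abcc2 alone was higher on both scales, of 19 tabulated, a share close to the 5.37% of all genes with a symbol. Lower on both scales were 2.91% of them.

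The labelled liver origin was set against cell type markers. Of 11 tabulated hepatocyte markers, 9 had at most 10 counts per library in control; transferrin, tf, held most of the rest, with 507 counts at 0.5 and 1533 in control, a change of -1.20 ± 0.22. The 10 tabulated fibroblast and mesenchyme markers summed to 3.99% of the tabulated reads at 0.5 and 4.91% in control, nearly all from the collagen genes col1a1b and col1a2, neither of which was called. The 6 epithelial markers summed to 0.268% and 0.368%, mostly krt18b, and the 4 leukocyte markers to 22.6 and 48.5 counts. The 8 endothelial and erythroid markers summed to 225 counts at 0.5 and 601 in control. Of these, slc4a1b alone was called, and the authors' F-test did not call it (adjusted p = 0.0517). Among single markers, twist2, tjp1b and slc4a1b were higher and vim and st14a lower on both scales, st14a with 0 counts at 0.5 and 3.89 in control; the part of any change in cell makeup in the results was not tested, and fewer cells of a kind and less RNA per cell cannot be told apart in these bulk libraries.

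The 12 genes with the largest positive change, among called genes with a symbol, a mean count of at least 10 and counts in both groups, added names outside the lists. The mean count covers all 6 liver groups, concentration 1 included. The bicarbonate transporter slc4a5a had 115 counts at 0.5 and 2 in control, a change of 5.92 ± 0.44, the largest of the 12. It was followed by keap1a, the matrix protein gene thbs4a (3.95 ± 0.86) and hspa1b, then by the vitamin A transporter gene stra6 (3.9 ± 0.81), hsp70a and abcc2. The rest were zanl, gsr, the activin subunit inhbaa (3.37 ± 0.77), si:ch1073-126c3.2 and a further gene known by a clone name. For thbs4a and stra6 the control level was under 1 count per library, so the fold rests on the offset of 0.5. The genes thbs4a, stra6 and the last one passed the mean count only through their level at 1, of 73.3, 59.0 and 35.5 counts. The mean counts of slc4a5a and inhbaa rest mostly on their levels at 0.5 and 1, with 2 and 3.83 counts in control.

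The 12 lowest under the same criteria were mostly genes of low level. The ubiquitin ligase adaptor asb4 fell to 1.44 counts at 0.5, against 28.5 in control, a change of -3.51 ± 0.42 (adjusted p = 0.00418). The cilium assembly gene ccdc40 fell to 17 counts at 0.5, against 145 in control, a change of -2.67 ± 0.17 (adjusted p = 0.000278). The radial spoke gene rsph3 (-2.21 ± 0.37) and the cilium gene hoatz (-2.25 ± 0.36) were also among them, as were snx9a, rnf208, prr12b, capslb, plcd1a, si:dkey-262k9.2, zgc:172302 and zgc:101540.

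**Figure D4:**
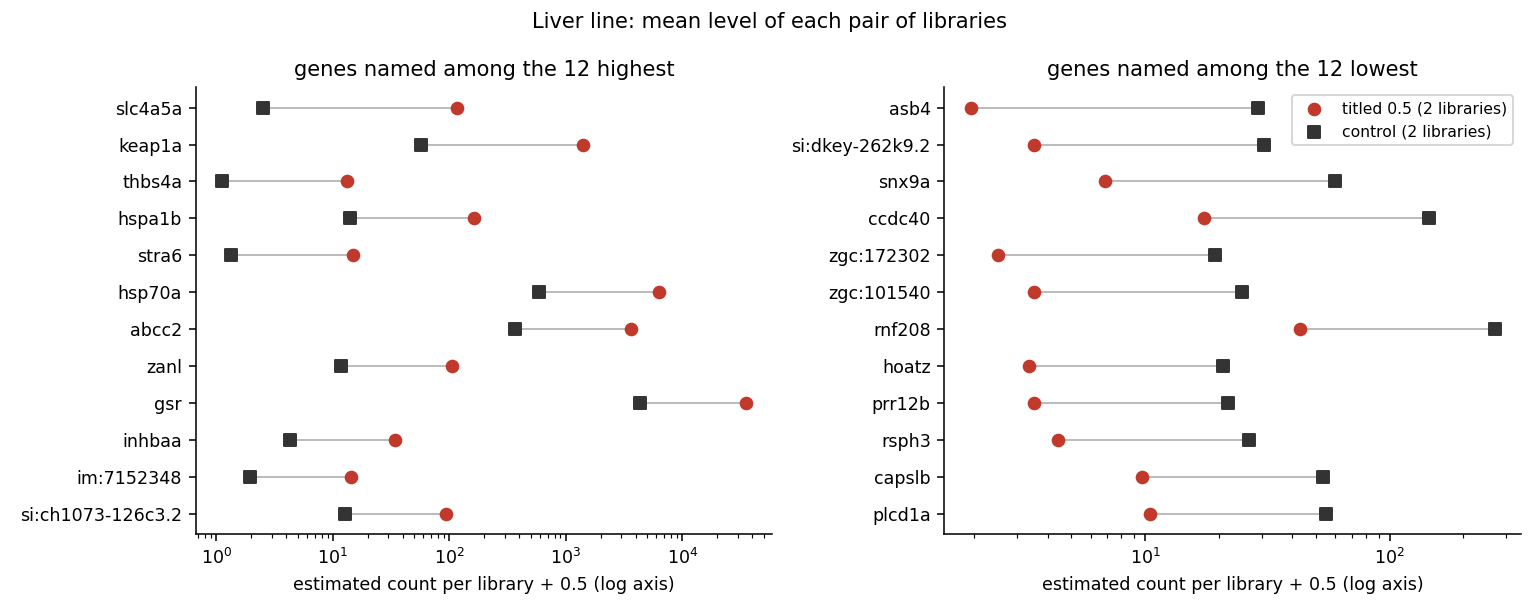
Estimated count per library plus 0.5 (x axis, log scale; each point is the mean of a pair of libraries) at 0.5 (red circles) and in control (black squares) for the 12 genes with the highest and the 12 with the lowest change among called genes with a symbol, a mean count of at least 10 and neither group at 0 counts. By level at 0.5, the highest range from thbs4a, at 12.7 counts and 0.62 in control, to gsr at 35412. The largest change, that of slc4a5a, lies between 115 counts at 0.5 and 2 in control. Most of the lowest have under 20 counts at 0.5.

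Because several of the lowest genes belong to motile cilia, a list of cilium and axoneme symbols was added after their values had been seen. Of its 107 annotated symbols 86 were tabulated, and 15 were lower and 1 higher on both scales, where 2.91% and 5.37% of genes with a symbol were. The 15 include 4 of the genes that prompted the list, ccdc40, rsph3, hoatz and capslb; without them 11 of 82 were lower. Nothing was tested on this list, since it was chosen by these values. The median of the 86 was -0.55 relative to the median gene and -0.98 as deposited. The dynein arm assembly gene pih1d2 changed by -1.56 ± 0.21, cfap91 by -1.11 ± 0.15 and cfap61 by -1.85 ± 0.36, while ak7b changed by 0.96 ± 0.12. Of the 15, 3 genes, cfap57, dnah5l and cfap52, had 0 counts in both libraries at 0.5 and under 7 in control. At 1 the list had 27 members lower and 6 higher, relative to the median gene, where 13.3% and 15.7% of all genes were. In gill at 0.5, 12 of 60 tabulated members were lower and 2 higher, and in gut 13 of 66 and 1. All genes tabulated in gill were lower in 6.22% and higher in 10.2%, and those in gut in 7.24% and 8.86%. A mean count of at least 10 in liver was reached by 54 of the 86.

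Genes with 0 counts in both libraries of one group were read against a floor of 3 counts per library. Of 309 genes at 0 in control and counted at 0.5, 136 exceeded the floor; the kinase gene stk31 was at least 5.99 log2 units higher relative to the median gene. Of 317 genes at 0 at 0.5 and counted in control, 62 exceeded it; asap2a, with 59.6 counts in control, had a bound of -3.71 and was at 0 again at 1. The others named at 0 at 0.5, si:ch1073-184j22.2 and npnta, had 6.73 and 9.56 counts at 1.

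A stretch of neighbouring genes stood out by position. By the gene order of the RefSeq annotation, 22 tabulated genes in a row starting behind aldh16a1 were each more than 1 log2 unit above the median gene. Their median was 3.12, or 2.69 as deposited, and 18 of them were higher on both scales, where 4.94% of all genes were. The run was chosen by these same values, so its numbers describe it and nothing was tested on it. They took 10.2% of the tabulated reads at 0.5 and 1.56% in control, with 3.10% at 0.1 and 16.1% at 1. The part of this share in the lower median as deposited was not tested.

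The step between 1 and 0.5 was compared directly, without the control. Relative to the median gene, 769 genes (3.31%) were higher and 401 (1.73%) lower at 1 than at 0.5. As deposited 607 (2.62%) were higher and 3561 (15.3%) lower. The 6 highest, among genes with counts in both groups, were the growth factor gene fgf16 (4.27 ± 0.72), hspa1b, pard6ga, the heat-responsive zinc finger gene zfand2a (3.21 ± 0.30, adjusted p = 0.00403), dnajb1b and the prostaglandin synthase gene cox-2 (3.12 ± 0.63). The genes fgf16 and pard6ga had 5.98 and 7.48 counts at 0.5. They passed the mean count of at least 10 only through their level at 1, of 100 and 86.5 counts. Of 13 tabulated heat shock genes 9 were higher at 1 than at 0.5. Of 30 ribosome biogenesis genes 1 was higher in this step, and of 11 integrated stress response genes 2 were, where 3.56% of all genes with a symbol were; differences between lists were not tested.

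Of the 6 lowest, 3 genes stood at or near the median gene at 0.5 and were lower at 1. The change relative to the median gene at 0.5 was -0.21 ± 0.54 for the neurotrophin receptor gene ntrk3a, 0.12 ± 0.38 for dcun1d2a and 0.01 ± 0.36 for rbbp8l, and the steps to 1 were -3.11, -2.15 and -2.04. For ntrk3a the level at 1 was under 1 count per library. The other 3, gkup, pih1d2 and ak8, were at -0.86, -1.56 and -0.86 at 0.5. The signalling adaptor traf2a, with 46.2 counts at 0.5 and 112 in control, had 0 counts at 1, and genes at 0 are not among these 6. In the authors' deposited table of benchmark doses, 1823 of 3482 fitted genes (52.4%) had a value between the concentrations titled 0.1 and 0.5, and 1532 (44.0%) one at or under 0.1. Rising curves were 677 of the 3482 and 306 of the 1532.

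At the same titled concentration the 3 lines were compared by the difference of their changes. Between the liver and gill lines 183 genes were higher (1.14% of 16083 in both tables) and 319 lower (1.98%) in liver. Between liver and gut lines these were 161 (0.999% of 16115) and 205 (1.27%). Of 1047 genes higher in liver and tabulated in gill, 649 were also higher in gill, 62.0% of the liver genes and 41.3% of the 1571 gill genes. Of all genes tabulated in gill, 10.2% were higher and 6.22% lower. Of 454 lower in liver, 142 were lower in gill (31.3% and 11.6%). With gut the shared numbers were 582 higher (60.1% and 40.3%) and 165 lower (36.7% and 11.6%), and of all genes tabulated in gut 8.86% were higher and 7.24% lower.

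Within the Nrf2 list the lines differed in size, gene by gene. All 8 called differences from gut were positive, that is higher in liver: gclc was at 3.17 in liver and 1.51 in gut, a difference of 1.66 ± 0.15 (adjusted p = 0.000248), and abcc2 at 3.69 in liver and 2.18 in gut, a difference of 1.51 ± 0.18 (adjusted p = 0.000597). Against gill 5 differences were called in both directions: keap1a was higher in liver, at 5.00 against 3.79, and sqstm1 lower in liver, at 1.84 against 4.14. No member of the heat shock list passed the test of a difference in either comparison, which does not show that they act alike. Of the 13, 9 were tabulated in gill and 4 in gut. The gene hsp70a was at 3.81 in liver, 4.27 in gill and 2.24 in gut.

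Outside the Nrf2 list several genes differed between the lines. The cell cycle inhibitor cdkn1a was at 1.48 ± 0.22 in liver, -0.0047 in gill, where it was not called, and -0.68 in gut (adjusted p = 0.00519), with differences of 1.49 ± 0.24 (adjusted p = 0.0104) and 2.16 ± 0.25 (adjusted p = 0.00138). The phosphatase lpin1 was at 0.87 in liver and -0.61 in gill, where it was not called (adjusted p = 0.111). In gut it had 0 counts at 0.5 and 29.0 in control, and 34.8 at 1. The transporter slc4a5a was at 5.92 in liver, 4.54 in gill and 1.08 in gut, and only the difference from gut was called. The change of slc40a1 was lower in liver, at 2.04, than in gill, at 4.27.

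**Figure D5:**
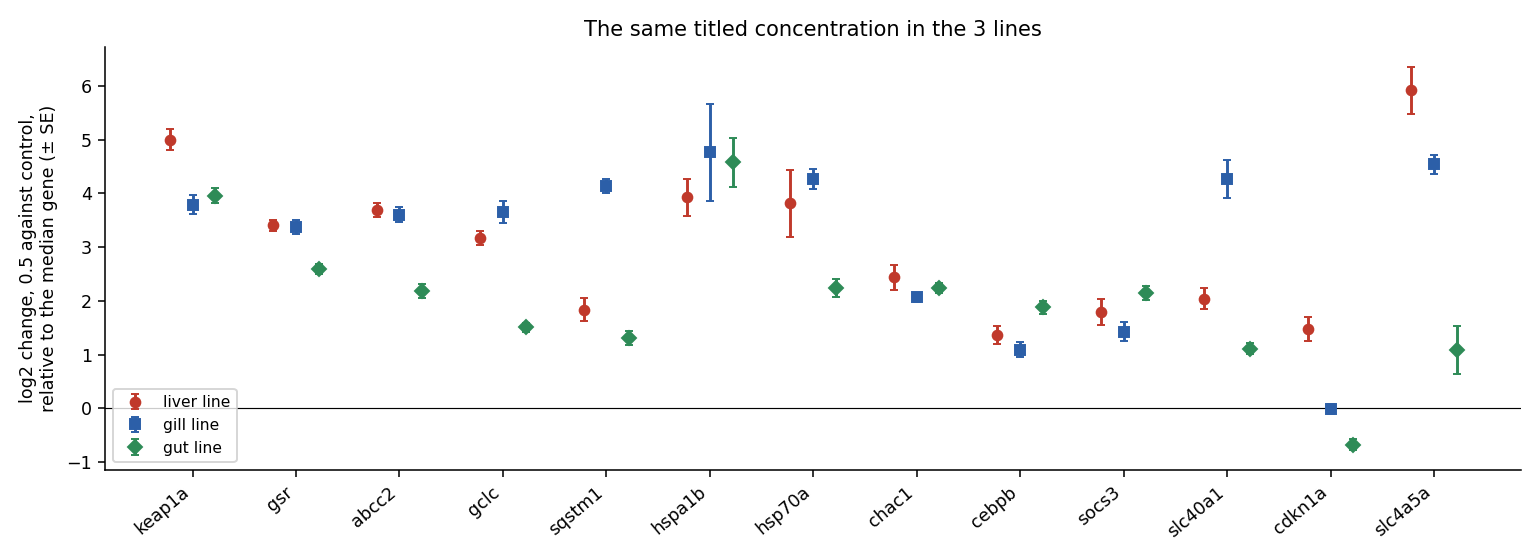
Log2 change at 0.5 against control, relative to each line's median gene (y axis, mean of 2 libraries against 2, bars are the SE), for 13 genes in the liver (red), gill (blue) and gut (green) lines. Glutathione genes are high in all 3 lines with gsr, abcc2 and gclc lowest in gut, while cdkn1a is at 1.48 in liver, -0.0047 in gill and -0.68 in gut.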

How the data were processed

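RNA of rainbow trout lines was sequenced and, per the submitters' processing notes, handled with fastp and Salmon. The authors deposited, per line, log2 fold changes of each concentration against control, mean log2 expression, F (a score) and p-values, and benchmark doses (a score on the table's dose scale). No values per library were used here, and 8 of the deposited tables were not used. Group means, residual variances and their 7.28 degrees of freedom were recovered from fold changes, F and p, as limma computes them, with numpy 2.4.6 and scipy 1.17.1. Differences from the median gene were tested with limma's moderated statistic over 23203 genes, with Benjamini-Hochberg adjustment at 0.05. The recovery was tested on simulated data. Estimated counts assume the offset of 0.5 that the lowest values show. Median standard error was 0.31 log2 units. No intervals on counts are given.

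Members and lists were chosen with earlier results of these data known. Named were the 12 highest and 12 lowest called genes with a symbol, a mean count of at least 10 and no group at 0. Mean counts were taken over all 6 liver groups. Also named were 3 members per list, 6 each way in the step to 1 and 4 per line difference. Further called members were named after their values were seen. Lists were matched by symbol, since the reference table holds neither protein names nor sequences, so promoter motifs were not searched. A called member of the glutathione list is counted but not reported here by name.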

Additional observations from a re-analysis of the deposited data

Results flagged for a closer look

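Genes named above are listed here where the change at 0.5 differed between lines by a test of the difference itself, in log2 units relative to each line's median gene, at an adjusted p under 0.05.

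Several of them belong to glutathione handling and redox control. The liver change exceeded the gut change by 1.04 for keap1a, 0.82 for gsr, 1.66 for gclc, 1.51 for abcc2 and 0.73 for prdx1. For keap1a the liver change also exceeded the gill change, by 1.21. The bicarbonate transporter slc4a5a differed from gut by 4.83. Against gill, the iron exporter slc40a1 differed by -2.23 and the zinc finger gene zfand2a by -2.24.

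Genes of growth control and metabolism differed too. For cdkn1a the differences were 1.49 from gill and 2.16 from gut, and for lpin1 1.48 from gill. The fitted difference of lpin1 from gut, 6.46, rests on 0 counts at 0.5 in gut and is no measure of size. The cadherin cdh2 differed from gut by -1.26, being higher than the median gene in both lines, and zgc:101540 from gill by -2.04.

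Some genes were named for their line difference from gill. The liver change was higher for si:ch211-252f13.5 (2.66, and 1.93 from gut), gas1a (2.33), ltbp1 (2.30) and hsd17b8 (2.24). In liver itself ltbp1, at 1.12 (adjusted p = 0.14), and hsd17b8, at -0.07 (adjusted p = 0.922), were not called. Their gill changes were -1.19 and -2.31. The liver change of gas1a, 1.94, starts from 4.27 counts in control. It was also above the median gene at 0.001, 0.01 and 0.1, at 1.45, 1.79 and 0.88. The authors' F-test did not call gas1a in liver (adjusted p = 0.0805). The liver change was lower for the chemokine gene ccl19a.1 (-4.86), the growth factor gene btc (-4.61), upb1 (-4.25) and elof1 (-4.09). The liver change of ccl19a.1 was 2.27, from 3 counts in control, and was not called (adjusted p = 0.125), while its gill change was 7.13. In liver ccl19a.1 passed the mean count of at least 10 only through its level at 1, of 49.2 counts. In liver upb1, at 0.49, was not called either. In gill control ccl19a.1, upb1 and elof1 had under 1 count per library, so their differences rest on the offset of 0.5. For btc the liver change was -1.92, not called relative to the median gene (adjusted p = 0.101), and the gill change 2.69.

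Among those named for their difference from gut, the liver change was higher for rhobtb3 (3.08), the receptor gene eda2r (2.66) and atxn1b (2.5). In gut rhobtb3 had 0.60 counts at 0.5 and 11.6 in control, and its liver change, -0.10, was not called. The liver change was lower for cacna1fb (-3.86), rasgef1bb (-3.41), cdc42ep4b (-3.31, and -2.17 from gill) and c19h8orf74 (-3.13). In liver itself none of them was called relative to the median gene, at -0.71, -0.13, -0.79 and -0.0014 in the same order. In gut control rasgef1bb had 2.37 counts per library and c19h8orf74 0.37, so the difference of c19h8orf74 rests on the offset of 0.5. The receptor gene eda2r was at 1.22 in liver and -1.44 in gut, where it was not called (adjusted p = 0.0533).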

How the results depend on the processing

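Only pair means were at hand, so no library could be left out. No paired analysis was possible because the tables carry no values per library. The scale decides most counts. Against 1954 genes above and 545 below the median gene, 1168 and 5651 passed with no centring, and 1180 and 5378 with the genes of the other tables placed at no change, a setting chosen after seeing the data; on both scales, also chosen then, 1147 were higher. With 1 common variance the counts were 6414 and 4111. With a change of at least 1 log2 unit, 1279 and 313 remained past both criteria. Of genes at least 1 log2 unit from the median gene, 3617 above and 2021 below became 1864 and 795 with an offset of 5 counts. With no centring the step to 1 had 3561 genes lower, and 267 were higher in liver than in gut. The 27 ribosome biogenesis genes were 11 with no centring, 11 with the other tables' genes at no change, 12 with the authors' F-test also passed and 11 on both scales. The 6 aminoacyl-tRNA synthetases were 0 in these settings and with at least 1 log2 unit, and 2 with the F-test. Heat shock genes fell to 5 with at least 1 log2 unit. Nrf2 and integrated stress response counts stayed within 1.5 times of 11 and 8 under every setting run. No gene named by rule reversed. With no centring 13 of them lost the call, lpin1 and cdh2 included, and 5 gained one. Members named after their values were seen were not checked singly. Centring on genes of at least median mean expression left no lower call in the p53 list, where bida had been called. It left 1 of 2 lower calls in the inflammation list. Genes of low count had the largest standard errors, which limits calls there.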
